A study of Homo sapiens with 3 samples.

Results

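In the human T-ALL (T-cell acute lymphoblastic leukaemia) line ALL-SIL, an established line, 4998 H3K4me1 peaks lay inside protein-coding genes that carried no H3K4me3 peak. They were 8.05% of the 62087 peaks in the H3K4me1 list (95% interval 7.84 to 8.27). A peak was taken when it was shorter than 10 kb and lay wholly inside a protein-coding gene, more than 1 kb from each end of all protein-coding and lncRNA genes. Every protein-coding gene that contained it also had to be free of H3K4me3 peaks over its whole span and 1 kb on each side. The members were thus chosen by measured values, the positions of the peaks in both lists and the lengths of the H3K4me1 peaks. The genes that held them are called host genes, and there were 1909. The study comprised 1 H3K4me1 ChIP-seq library, 1 H3K4me3 ChIP-seq library and 1 library of input DNA, all from ALL-SIL cells. With 1 library per mark there was no replicate error and no test. All intervals are at 95%. Those of shares are exact and cover counting error only, and those of medians come from the ranked values of genes or peaks. None covers variation between libraries.

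H3K4me1 is histone H3 carrying a single methyl group on lysine 4, written mainly by the KMT2C and KMT2D methyltransferases. It marks enhancers, both active ones and those only prepared for use, and the flanks of active promoters. H3K4me3 is the trimethylated form, written by the SET1 and KMT2A complexes at promoters, above all at those rich in CpG dinucleotides. Many enhancers lie in introns, where they can act on the gene around them or on a neighbouring gene. A peak list of H3K4me1 and H3K4me3 does not record which gene an enhancer acts on, nor whether a gene is transcribed.

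The promoters of the host genes ranged from nearly free of CpG to very rich in it, and a few are shown because CpG-rich promoters are the usual place of H3K4me3. RefSeq promoter windows (GRCh38.p14), running from 250 bases before to 50 bases after the start site, matched 1432 of the 1909 host genes. Below are 5 of them, taken from the 42 host genes with at least 10 peaks whose tabulated start site is the end of the gene. They are the promoters of the 3 with most peaks, then the lowest and the highest ratio of observed to expected CpG. They are written 5′ to 3′ on the gene's strand, with each CG in capitals, the motif searched. FHIT is at chr3:61251403-61251702 on the minus strand, RNLS at chr10:88583269-88583568 on the minus strand and SLC9A9 at chr3:143848419-143848718 on the minus strand. GALNT13 is at chr2:153068043-153068342 on the plus strand and TTC28 at chr22:28679791-28680090 on the minus strand.
FHIT: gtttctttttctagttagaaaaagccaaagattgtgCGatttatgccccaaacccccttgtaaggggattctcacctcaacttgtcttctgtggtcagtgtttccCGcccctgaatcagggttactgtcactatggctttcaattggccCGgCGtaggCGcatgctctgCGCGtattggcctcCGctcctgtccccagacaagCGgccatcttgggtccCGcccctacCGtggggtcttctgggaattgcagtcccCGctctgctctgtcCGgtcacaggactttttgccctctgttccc
RNLS: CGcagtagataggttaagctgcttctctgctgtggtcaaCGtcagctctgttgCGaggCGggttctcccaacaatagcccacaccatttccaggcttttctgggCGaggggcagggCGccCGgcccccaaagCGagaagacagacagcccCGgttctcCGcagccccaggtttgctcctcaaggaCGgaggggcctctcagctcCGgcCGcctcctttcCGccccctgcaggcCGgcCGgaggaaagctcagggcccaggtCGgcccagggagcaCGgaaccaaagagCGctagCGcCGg
SLC9A9: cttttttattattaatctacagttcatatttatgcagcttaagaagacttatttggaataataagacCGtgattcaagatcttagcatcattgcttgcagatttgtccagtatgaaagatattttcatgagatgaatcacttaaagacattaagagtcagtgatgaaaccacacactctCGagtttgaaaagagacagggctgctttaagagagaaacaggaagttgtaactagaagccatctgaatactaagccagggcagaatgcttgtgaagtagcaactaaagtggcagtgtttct
GALNT13: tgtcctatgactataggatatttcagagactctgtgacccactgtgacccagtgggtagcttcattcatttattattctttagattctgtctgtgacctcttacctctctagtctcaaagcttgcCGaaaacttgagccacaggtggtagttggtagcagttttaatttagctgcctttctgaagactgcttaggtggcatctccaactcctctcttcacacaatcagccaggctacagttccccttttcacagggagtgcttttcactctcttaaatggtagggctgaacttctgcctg
TTC28: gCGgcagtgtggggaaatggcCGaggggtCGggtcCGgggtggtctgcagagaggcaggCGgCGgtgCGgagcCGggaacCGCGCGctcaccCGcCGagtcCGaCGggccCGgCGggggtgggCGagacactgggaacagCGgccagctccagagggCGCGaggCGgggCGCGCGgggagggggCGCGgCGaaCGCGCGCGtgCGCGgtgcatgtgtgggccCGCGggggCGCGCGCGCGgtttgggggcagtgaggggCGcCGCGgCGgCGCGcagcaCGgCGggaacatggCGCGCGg
The FHIT window held 13 CG with a GC content of 55%, and the RNLS window held 21 with 65.7%. The SLC9A9 window held 2 CG and the GALNT13 window 1, with GC contents of 36% and 45%, while the TTC28 window held 52 at 80%. Their observed over expected ratios were 0.584 for FHIT, 0.651 for RNLS, 0.21 for SLC9A9, 0.0667 for GALNT13 and 1.19 for TTC28. A CG occurs in 98.1% of the 15842 tabulated promoters of protein-coding genes, so its presence alone sets no promoter apart.

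The libraries held 34813455 filtered tags for H3K4me1, 30823016 for H3K4me3 and 18859011 for the input. The H3K4me3 list, which defined the lacking genes, held 11100 peaks. H3K4me3 lay in the span plus 1 kb of 10 of 11 T-lineage markers, all but CD2, and of 1 of 5 B-lineage markers, PAX5. None of 5 myeloid and 4 natural killer markers had it. Throughout, lacking H3K4me3 means that no peak was called in that 1 library.

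Of 20037 protein-coding genes, 9336 (46.6%) lacked H3K4me3 and 10701 carried it. Host genes were 9.53% of all protein-coding genes and 20.4% of those lacking H3K4me3 (19.6 to 21.3). Under the same length and distance limits, 7007 genes with H3K4me3 had an intragenic H3K4me1 peak, which is 65.5% of them (64.6 to 66.4). The 4998 peaks made up 16.4% of the 30441 intragenic peaks within these limits (16 to 16.8), and the other 25443 lay in genes with H3K4me3. Set against the sequence available, there were 8.42 peaks per Mb over 593 Mb of genes lacking H3K4me3, and 41.7 per Mb over 609 Mb of genes with it. They covered 1.21% of that sequence in genes lacking H3K4me3 and 6.52% in genes with it. The remaining H3K4me1 peaks were 17822 between genes, 12713 near a gene end, 1043 of 10 kb or more and 68 outside the main chromosomes.

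Long genes were hosts more often than short ones, in both kinds of gene. The share of genes with an intragenic peak was 3.4% among genes under 10 kb that lacked H3K4me3 (119 of 3503) and 24.6% among those with it. It was 28.8% of lacking genes of 20 to 50 kb, against 73% of genes with H3K4me3. It was 46.5% of lacking genes of 500 kb or more (101 of 217, 39.8 to 53.4), against 90.8% of those with H3K4me3 (89 of 98, 83.3 to 95.7). The intervals of the 2 kinds of gene did not overlap in any of the 7 length classes. The median number of peaks per gene that had one was 3 in lacking genes of 500 kb or more and 14 in genes with H3K4me3 of that length. Host genes had a median length of 57.8 kb, other lacking genes 12.1 kb and genes with H3K4me3 29.8 kb.

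**Figure D1:**
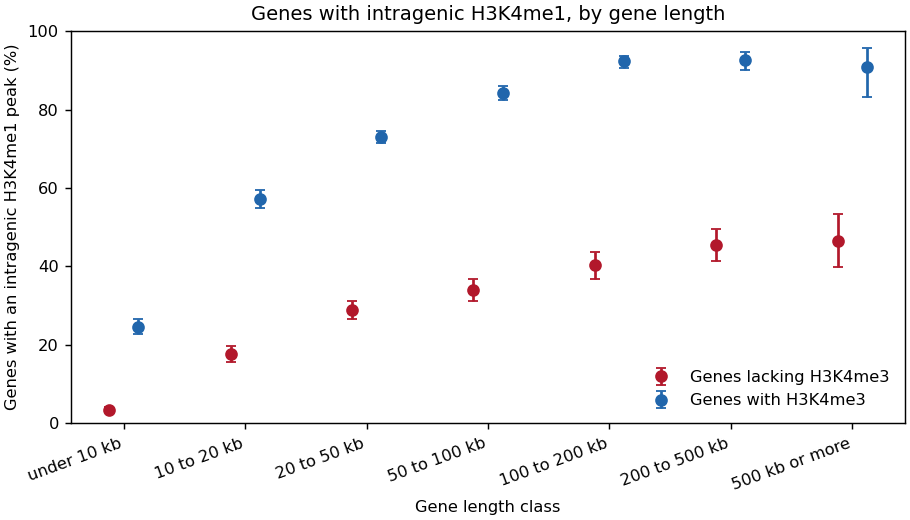
Share of genes with at least 1 intragenic H3K4me1 peak (y axis, percent) by gene length class (x axis), for genes lacking H3K4me3 (red) and genes with H3K4me3 (blue). Bars are exact 95% intervals for counting error. The share is lower in genes lacking H3K4me3 in every class, from 3.4% against 24.6% under 10 kb to 46.5% against 90.8% at 500 kb or more.

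As peaks, those in genes lacking H3K4me3 differed little from the others in the authors' scores. Their median fold enrichment over the local background was 2.40 (2.37 to 2.43, quartiles 1.97 and 3.18, range 1.02 to 9.29). It was 2.37 (2.36 to 2.38) for peaks inside genes with H3K4me3 and 2.35 (2.34 to 2.36) for peaks between genes. The median pileup, the height of stacked fragments averaged over the peak, was 6.36 in lacking genes, 6.46 in genes with H3K4me3 and 6.39 between genes. Median lengths were 964 bp, 1024 bp and 940 bp in the same order of lacking genes, genes with H3K4me3 and sequence between genes. The distance to the nearest H3K4me3 peak differed far more, with medians of 115580 bp from peaks in lacking genes, 18675 bp from peaks in genes with H3K4me3 and 60803 bp from peaks between genes. The rule itself keeps H3K4me3 away from the first of these. A further 413 of the 4998 peaks (8.26%, 7.51 to 9.06) also lay inside an lncRNA gene, against 1019 of 25443 (4.01%, 3.77 to 4.25) in genes with H3K4me3.

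A single peak was the commonest count in host genes, and a small set of hosts held many. Exactly 1 peak was found in 994 host genes (52.1%, 49.8 to 54.3), 2 in 367 (19.2%) and 3 or 4 in 283 (14.8%). At least 5 were found in 265 host genes, which is 13.9% of hosts (12.4 to 15.5) and 2.84% of genes lacking H3K4me3. These 265 genes held 2350 of the 5043 pairings of a peak and a host (46.6%), where 42 peaks lay in more than 1 protein-coding gene and were paired with each. At least 10 peaks were found in 77 genes and at least 20 in 17. The mean was 2.64 peaks per host, the quartiles were 1 and 3 and the highest count was 41. Hosts with more peaks were longer: the median length was 34.5 kb with 1 peak, 66.2 kb with 2 to 4 and 153 kb with 5 or more. Across the 1909 hosts the rank correlation between length and number of peaks was 0.41, a description across genes that share 1 library. The median fold of the peaks was 2.38 in hosts with 1 peak, 2.36 with 2 to 4 and 2.44 with 5 or more.

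**Figure D2:**
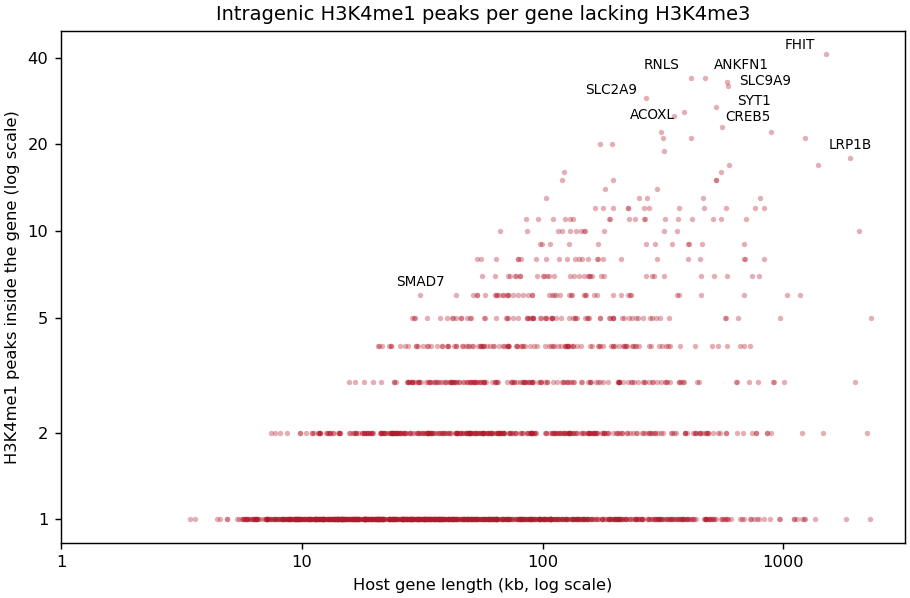
Number of intragenic H3K4me1 peaks (y axis, log scale) against gene length in kb (x axis, log scale) for the 1909 host genes, 1 point per gene. Most points lie at 1 or 2 peaks, the median reaches 3 among genes of 500 kb or more, and the highest counts, up to 41 in FHIT, belong to genes of over 200 kb.

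The 12 host genes with most peaks were between 269 kb and 1500 kb long. FHIT, a hydrolase of dinucleoside polyphosphates whose gene spans a common fragile site, held 41 peaks in 1500 kb (chr3:59747277-61251452). Its peaks had a median fold of 2.16 (1.33 to 5.35) and lay on average at 0.853 of the gene's length from its 5′ end. RNLS, which encodes the flavoprotein renalase, held 34 in 412 kb (chr10:88171523-88583318) with a median fold of 1.98 (1.38 to 3.06). ANKFN1, a gene with ankyrin and fibronectin repeats, also held 34, in 471 kb (chr17:56046077-56517016), with a median fold of 2.76 (1.49 to 6.57). H3K4me1 of any length covered 100 kb of ANKFN1, which is 21.3% of it, against 16.7% of RNLS and 4.34% of FHIT. ANKFN1 also held 3 H3K4me1 peaks of 10 kb or more, which are not among its 34.

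SLC9A9, a sodium and proton exchanger of endosomes, held 33 peaks in 583 kb with a median fold of 1.86 (1.38 to 4.11). SYT1, the calcium sensor of synaptic vesicle release, held 32 in 588 kb, and its median fold of 3.79 (2.06 to 6.4) was the highest of the 12. SLC2A9, a urate transporter, held 29 in 269 kb and was the most densely covered of the 12, with H3K4me1 over 25.8% of its span. The transcription factor gene CREB5 held 27 peaks with a median fold of 1.87, and ACOXL, related to the acyl-CoA oxidases, held 26 with 2.73. COL23A1, a transmembrane collagen, held 25 with a median fold of 2.18, and KIF26B, a kinesin family member, held 23 with 2.35. SDK2 and NEGR1, both cell adhesion proteins of neurons, held 22 each, in 310 kb of SDK2 and 887 kb of NEGR1. Among these 12 genes the median fold ran between 1.86 and 3.79, so a high count did not go with one level of enrichment.

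**Figure D3:**
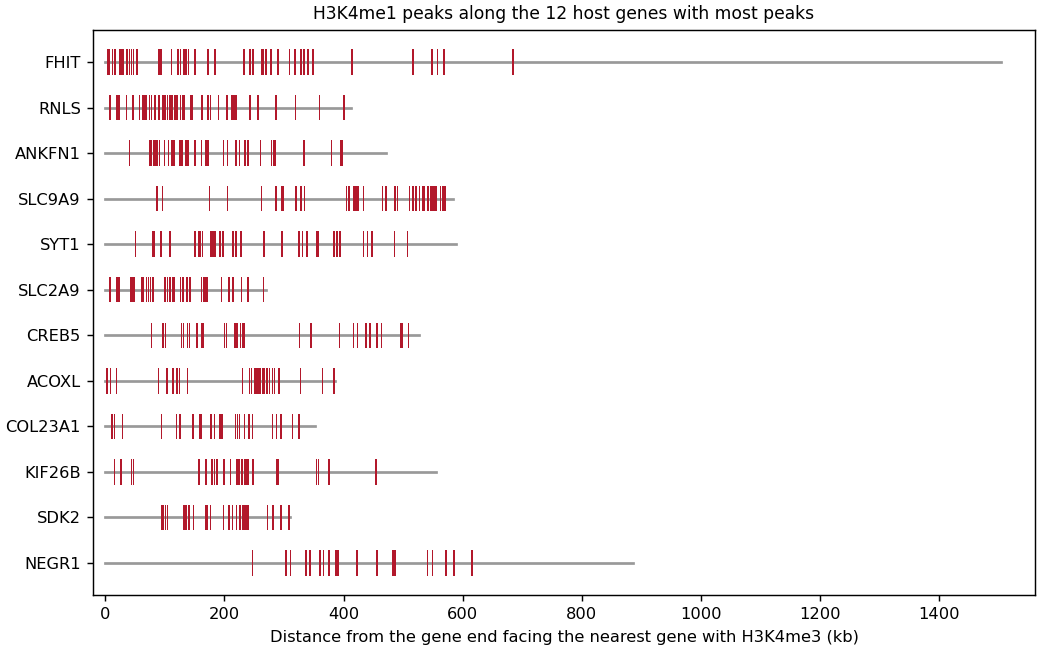
Positions of the H3K4me1 peaks (red ticks) along the 12 host genes with most peaks (grey lines), in kb from the gene end that faces the nearest gene with H3K4me3. FHIT peaks crowd at the end facing KCTD6, 1240 kb away, while SLC9A9 peaks crowd at the end away from DIPK2A, 123 kb away.

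Joining the peaks of a gene across gaps of up to 10 kb gave 3227 groups, of which 2281 (70.7%) were single peaks and 102 (3.16%) held at least 5. The largest held 18 peaks over 99 kb of ANKFN1 (chr17:56119119-56218146), and 35.1 kb of that stretch was under a peak. RNLS had 17 over 88.9 kb, ACOXL 12 over 51 kb and LRIG1, a negative regulator of growth factor receptors, 12 over 68.4 kb. The median distance between the midpoints of neighbouring peaks of a gene was 9.03 kb. A peak of 10 kb or more stood in 86 host genes as well, and 47 such peaks met every other limit, with a median of 13486 bp and a longest of 35554 bp.

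Among host genes with at least 5 peaks, the densest was SMAD7, the inhibitory SMAD of TGF-β signalling, with 6 peaks in 31.1 kb or 19.3 per 100 kb. Along chromosome 18, its peaks had folds of 2.76, 5.75, 4.39, 3.97, 6.12 and 6.21 and lengths of 2798, 1356, 4291, 3254, 1169 and 2283 bp. All 6 SMAD7 peaks were above the median fold of 2.40, and H3K4me1 covered 48.7% of the gene. The next were PLLP, a membrane protein of myelin, with 17.5 per 100 kb, CA6, the secreted carbonic anhydrase of saliva, with 17.1, and CX3CR1, the fractalkine receptor, with 17.0. LY86, whose product pairs with the B-cell receptor CD180, held 10 peaks, or 15.1 per 100 kb, and had 50.3% of its span covered. UPB1, an enzyme of pyrimidine breakdown, also had 15.1 per 100 kb, the receptor tyrosine kinase gene RET had 15 and PIWIL3, of the piRNA pathway, had 14.4. SMAD7 stood apart from the other 7 in fold, with a median of 5.07 against 1.78 in PLLP, 2.02 in CA6, 2.41 in CX3CR1, 2.16 in LY86, 1.84 in UPB1, 1.89 in RET and 2.60 in PIWIL3.

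The highest single folds lay in other genes, mostly in short peaks. GCGR, the glucagon receptor, held the highest, 9.29 over 418 bp (chr17:81809920-81810337), and a second of 8.50 over 375 bp. A peak of 277 bp in NSMF, a synapse-to-nucleus messenger, reached 8.86 (chr9:137450060-137450336), and one in KLHL29, a kelch family gene, reached 8.27 over 383 bp. CARMIL1, which acts on actin capping, had 8.07, ELAVL4, a neuronal RNA-binding protein, 7.98, and ITGA11, a collagen-binding integrin, 7.93. The peak of HOXD3, a body-patterning factor, also had 7.93, over 1977 bp, and lay only 3326 bp from an H3K4me3 peak. The longest peaks were 9920 bp in LRIG1, 9868 bp in HKDC1, a hexokinase-like gene, and 9857 bp in SLC4A10, a bicarbonate transporter. Their folds were 3.29 in LRIG1, 3.24 in HKDC1 and 2.35 in SLC4A10.

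The limits of the rule passed through continuous values. Peaks just too long were those of 10001 bp in CD28, 10073 bp in PIWIL3 and 10080 bp in TFEC. Just inside the distance to a gene end were peaks 1002 bp away in MANEAL and 1003 bp away in ADTRP and SPATS1, and just outside were peaks at 1000 bp in FSTL4 and PRX and at 994 bp in HPX. The hosts closest to an H3K4me3 peak were SECTM1 at 1016 bp, NECTIN2 at 1019 bp and SP7 at 1033 bp. Genes just outside included RASA4B at 968 bp and DUOX1 at 958 bp.

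Counted over all peaks, those in genes lacking H3K4me3 were slightly more frequent towards the 3′ end, whereas those in genes with H3K4me3 gathered towards the 5′ end. In 1165 host genes of at least 20 kb with a known strand, 21.9% of 3601 peaks lay in the 25% of the gene nearest the 5′ end and 27.6% in the 25% nearest the 3′ end. In 4558 genes with H3K4me3 these shares were 38.3% and 16.4% of 20133 peaks. The 10% of the gene nearest the 5′ end held 8.05% of the peaks in host genes and 19.2% in genes with H3K4me3. A gene's mean peak position was nearer its 5′ than its 3′ end in 48.8% of host genes (568 genes, 45.8 to 51.7), against 77.8% of genes with H3K4me3 (3548 genes, 76.6 to 79). Counted by gene, the hosts thus did not clearly lean to either end, and genes with many peaks weigh more in the count of peaks. In both kinds of gene, peaks within 1 kb of a gene end were left out.

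**Figure D4:**
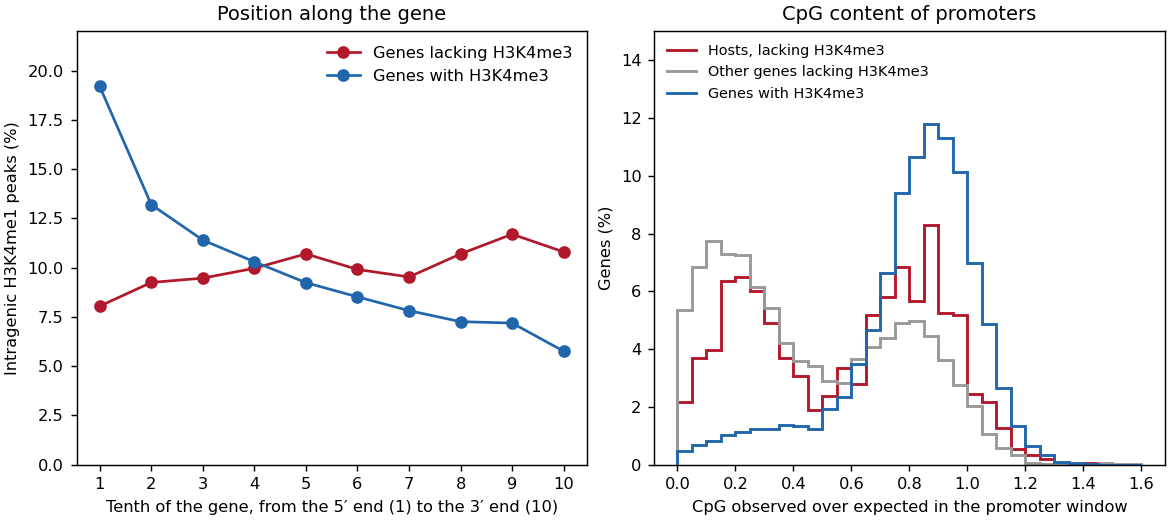
Left, share of intragenic H3K4me1 peaks (y axis, percent) in each 10% of the gene's length from the 5′ end (x axis), for genes of at least 20 kb lacking H3K4me3 (red) or with H3K4me3 (blue). Right, distribution of the observed over expected CpG ratio of promoter windows (x axis, in steps of 0.05) as the share of genes (y axis, percent) for hosts (red), other lacking genes (grey) and genes with H3K4me3 (blue). The 10% nearest the 5′ end holds 8.05% of peaks in lacking genes and 19.2% in genes with H3K4me3, and median CpG ratios are 0.631 in hosts, 0.397 in other lacking genes and 0.851 in genes with H3K4me3.

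The ends of the gene were not used to pick hosts from the lacking genes, since a peak had to be more than 1 kb away from them. H3K4me1 lay within 1 kb of an end of 581 hosts (30.4%, 28.4 to 32.6), against 792 of the 7427 other lacking genes (10.7%, 9.97 to 11.4) and 42.6% of all protein-coding genes. The share was higher in hosts within each length class: 45.4% of hosts under 10 kb against 13.3% of other lacking genes, 39.8% against 8.72% at 20 to 50 kb, and 9.9% against 0.862% at 500 kb or more. At the 5′ end the shares were 18.2% of hosts (260 of 1432 with a known strand), 6.95% of other lacking genes (380 of 5466) and 59.1% of genes with H3K4me3 (5290 of 8944). At the 3′ end they were 17.1% of hosts, 5.82% of other lacking genes and 22.2% of genes with H3K4me3. Hosts thus carried H3K4me1 about equally often at either end, unlike genes with H3K4me3.

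Promoters of host genes were richer in CpG than those of other genes lacking H3K4me3, and poorer than those of genes with H3K4me3. These sets also differed in median gene length, with 57.8 kb in hosts, 12.1 kb in other lacking genes and 29.8 kb in genes with H3K4me3. The ratio was not compared within length classes, here or between hosts with few and many peaks. The median observed over expected ratio was 0.631 in 1432 hosts (0.591 to 0.669), 0.397 in 5466 other lacking genes (0.38 to 0.416) and 0.851 in 8944 genes with H3K4me3 (0.847 to 0.855). A ratio of at least 0.6, a usual limit for CpG islands, was reached by 745 hosts (52%, 49.4 to 54.6), by 37.1% of other lacking genes (35.8 to 38.4) and by 85.1% of genes with H3K4me3, against 65.6% of all tabulated promoters. The share among hosts was 49% with 1 peak (358 of 731), 54% with 2 to 4 and 57.9% with 5 or more (124 of 214, 51 to 64.6), and these intervals overlap in part. It was 38.5% in the 260 hosts with H3K4me1 at the 5′ end and 55% in the 1172 without. The FHIT window printed above, at 0.584, lies just under this limit, and that of RNLS, at 0.651, just over it.

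The nearest gene with H3K4me3 was closer to host genes than to other genes lacking the mark. The median gap between the gene spans was 22.8 kb for hosts (19.3 to 25.5, quartiles 4.74 and 79.2) and 65.5 kb for other lacking genes (61.8 to 69.6, quartiles 10.6 and 229). A gene with H3K4me3 lay within 50 kb of 1250 hosts (65.5%, 63.3 to 67.6) and of 3355 other lacking genes (45.2%, 44 to 46.3). It was more than 500 kb away from 69 hosts (3.61%) and 884 other lacking genes (11.9%). It overlapped 157 hosts (8.22%) and 624 other lacking genes (8.4%), a share that hardly differed. No protein-coding gene lay in between for 76.8% of hosts (1467) and 53.4% of other lacking genes (3966).

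The shorter gap was seen in genes of every length. Under 10 kb the median gap was 8.35 kb for 119 hosts and 64.2 kb for 3384 other lacking genes, and at 20 to 50 kb it was 16.1 kb and 50.8 kb. At 500 kb or more it was 133 kb for 101 hosts and 330 kb for 116 other lacking genes. Among the 265 hosts with at least 5 peaks the median was 26.5 kb (21.6 to 34.5). The hosts named 1635 different nearest genes with H3K4me3, and 497 hosts (26%, 24.1 to 28.1) shared theirs with another host. MPZL3 on chromosome 11 was the nearest for 8 hosts, among them the interleukin-10 receptor gene IL10RA and the sodium channel subunit genes SCN2B and SCN4B. ATG101 and HJURP were each the nearest for 6 hosts, and these 3 shared neighbours were picked for naming after their counts were seen.

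**Figure D5:**
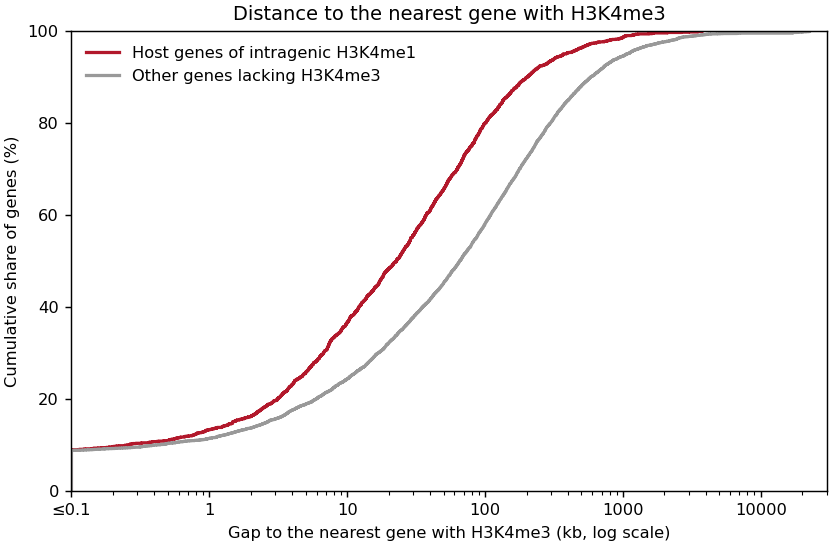
Cumulative share of genes (y axis, percent) by the gap to the nearest protein-coding gene with H3K4me3 (x axis, kb, log scale, with overlapping genes at the left edge), for 1909 host genes (red) and 7427 other genes lacking H3K4me3 (grey). The curves start together, with 8.22% of hosts and 8.4% of other lacking genes overlapping such a gene, and then part, with medians of 22.8 kb and 65.5 kb.

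Among the 265 hosts with at least 5 peaks, 21 overlapped a gene with H3K4me3 while no such peak lay in their own span. Those with most peaks were LRIG1 with 16, whose neighbour is the mitochondrial carrier gene SLC25A26, and TMEM272 with 15, beside the copper transporter gene ATP7B. ARHGAP22 beside MAPK8, RGS6 beside DPF3, MCC beside DCP2 and TXLNB beside HECA held 12 each. The shortest gaps above 0, named after their values were seen, were 0.059 kb between ENTHD1, with 10 peaks, and GRAP2, an adaptor of T-cell receptor signalling, and 0.157 kb between NEK6, a mitotic kinase with 11 peaks, and PSMB7. The longest were 1670 kb from LUZP2 to SVIP, 1240 kb from FHIT to KCTD6, 1020 kb from TAFA5 to BRD1, 998 kb from LRP1B to ARHGAP15 and 993 kb from EPHA4 to FARSB. These 5 hosts held 7 peaks in LUZP2, 41 in FHIT, 5 in TAFA5, 18 in LRP1B and 7 in EPHA4.

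The 12 genes with most peaks differed widely in how far the nearest gene with H3K4me3 was. For ACOXL it was BCL2L11, which encodes the death-promoting protein BIM, at 2.37 kb. Among the others were PCTP at 193 kb from ANKFN1, DIPK2A at 123 kb from SLC9A9, PAWR at 133 kb from SYT1, WDR1 at 34.1 kb from SLC2A9 and CPVL at 169 kb from CREB5. PHYKPL lay 4.79 kb from COL23A1, DRC8 29.8 kb from KIF26B, CDC42EP4 22.4 kb from SDK2 and ZRANB2 315 kb from NEGR1. The mean peak position was in the part of the gene nearer to the gene with H3K4me3 in 943 of 1752 hosts (53.8%, 51.5 to 56.2), and in 349 of 625 hosts of at least 100 kb (55.8%, 51.8 to 59.8). FHIT, at 0.147 of its length from the facing end, and SLC9A9, at 0.687, lay on opposite sides of this count.

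T-lineage genes were the nearest gene with H3K4me3 for 8 hosts (0.419%), against 32 other lacking genes (0.431%). Of the 41 T-lineage genes listed, 30 were among the 10701 protein-coding genes with H3K4me3, so few of the possible neighbours were T-lineage genes. The 8 included PTPRK, a receptor tyrosine phosphatase with 16 peaks, 50.2 kb from THEMIS, a protein of thymocyte selection. SECTM1, which encodes a ligand of CD7, held 2 peaks and lay 3.42 kb from CD7 itself. TMPRSS3, a serine protease, held 2 peaks 7.85 kb from UBASH3A, a suppressor of T-cell receptor signalling, and MORC1 held 2 at 103 kb from TRAT1, a T-cell receptor associated protein. These 4 pairs were named after their values were seen. Lymphocyte signalling genes were nearest to 10 hosts (0.524%) and 56 other lacking genes (0.754%).

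T-lineage genes themselves mostly carried H3K4me3, so few could be hosts. Of 41, 11 lacked it, and 3 of these were hosts (27.3%, 6.02 to 61), beside 20.4% over all lacking genes and 3.4% of those under 10 kb, where their median length of 9.93 kb falls. That length is close to the class limit, and 17.5% of lacking genes of 10 to 20 kb were hosts. CD28, the costimulatory receptor, held 1 peak with a fold of 4.02, beside the peak of 10001 bp that was too long. CTLA4, the inhibitory receptor that shares its ligands, held 1 peak with a fold of 1.75 in 6.2 kb, 62.8 kb from ICOS. DNTT, the terminal transferase of immature lymphocytes, held 1 with a fold of 4.56, 99.1 kb from ZNF518A.

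Receptors for cytokines and chemokines formed larger groups of hosts. Of 50 cytokine and interleukin receptor genes, 35 lacked H3K4me3 and 18 of these were hosts (51.4%, 34 to 68.6), with 40 peaks in all. IL6R, the interleukin-6 receptor, held 6 peaks with folds of 2.91, 2.18, 2.27, 2.78, 1.66 and 2.42 along the gene, and one of them was 8017 bp long. FLT3, a receptor kinase of early progenitors, held 5 with folds of 2.51, 3.74, 4.29, 2.71 and 3, all above the median of 2.40. IL12RB2, a receptor chain for interleukin-12, held 5 with folds of 2.04, 2.5, 2.68, 1.86 and 1.94, and IL23R, for interleukin-23, held 4 with folds between 1.59 and 3.06. CRLF2 and CSF2RA held 2 each, as did IL3RA, and these 3 stand in the part shared by chromosomes X and Y, where the copy a read came from cannot be told. IL2RA, the high-affinity chain of the interleukin-2 receptor, held 2 with folds of 3.43 and 3.15. The lacking receptor genes had a median length of 51.7 kb, a class in which 33.9% of lacking genes were hosts. IL3RA and IL2RA have as many peaks as CRLF2 and CSF2RA, and were named after their values were seen.

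Of 29 chemokine and homing receptor genes, 18 lacked H3K4me3 and 8 were hosts (44.4%, 21.5 to 69.2) with 24 peaks, beside 20.4% of all lacking genes and 17.5% of those of 10 to 20 kb, where their median length of 12.4 kb falls. CCR3, the eotaxin receptor, held 7 with folds between 1.43 and 2.71. XCR1, a receptor of cross-presenting dendritic cells, held 6 with folds between 1.66 and 2.74, and CX3CR1 held 5 with folds between 1.78 and 3.12. SELP, an adhesion molecule of platelets and endothelium, held 2, and CCR1 and CCR6 held 1 each. CCR3, CCR1 and XCR1 stand close together on chromosome 3, with FYCO1 as their common nearest gene with H3K4me3. It was 215 kb from CCR3, 206 kb from CCR1 and 21.2 kb from XCR1. CX3CR1 lay 36.7 kb from CCR8, itself a chemokine receptor gene.

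For markers of other blood cells, the intervals of the host shares were wide and all included the 20.4% of lacking genes at large. They also included the share for the median length of each list. That was 28.8% for B-lineage genes (21.3 kb) and 17.5% for natural killer (11.4 kb) and myeloid genes (15.4 kb). For erythroid and megakaryocyte genes (7.72 kb) it was 3.4%. Of 18 B-lineage genes that lacked H3K4me3, 6 were hosts (33.3%, 13.3 to 59). BLK, a B-cell kinase of the SRC family, held 5 peaks with folds of 1.95, 1.95, 2.61, 4.79 and 3.85. BANK1, an adaptor of the B-cell receptor, held 3, TNFRSF13B, a receptor for B-cell survival factors, 2, and the coreceptor gene CR2 held 1. EBF1, the factor that directs B-cell fate, held 1 peak with a fold of 6.03. Of 18 natural killer and cytotoxic genes that lacked H3K4me3, 5 were hosts (27.8%, 9.69 to 53.5). KLRD1, which encodes CD94, held 6 peaks with folds between 1.77 and 2.99, of which 2 also lay in an lncRNA gene. The receptor gene CD244, the death ligand gene FASLG and TBX21, the factor of type 1 responses, held 2 each, and the granzyme gene GZMA held 1. Of 22 myeloid genes that lacked it, 4 were hosts (18.2%, 5.19 to 40.3), namely ITGAM with 2 and CSF1R, ITGAX and SPI1 with 1 each. Of 15 such erythroid and megakaryocyte genes, EPB42 alone was a host, with 1 peak.

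Of 18 T-ALL transcription factor oncogenes that lacked H3K4me3, 1 was a host, SPI1, with a peak of fold 3.04 (5.56%, 0.141 to 27.3). Of 32 HOX genes, HOXD3 was the single host (3.12%, 0.0791 to 16.2). Both groups consist of short genes, with median lengths of 7.86 kb for the lacking oncogenes and 3.17 kb for the lacking HOX genes, in a class where 3.4% of lacking genes were hosts. Of 42 lymphocyte signalling genes 35 carried H3K4me3, and of the 7 that lacked it 6 were hosts (85.7%, 42.1 to 99.6). Their median length was 230 kb, in a class where 45.3% of lacking genes were hosts, a share inside that interval. ARHGAP24, which switches off RAC, held 15 peaks with folds between 1.53 and 2.84. SKAP1, an adaptor of T-cell adhesion, held 3, and the exchange factor genes VAV2 and DOCK1, the phospholipase gene PLCG2 and the adaptor gene PIK3AP1 held 2 each. The peaks of PIK3AP1 had folds of 5.96 and 3.19, those of PLCG2 2.84 and 3.87, those of VAV2 3.25 and 2.16 and those of DOCK1 1.8 and 1.76. None of 20 housekeeping genes lacked H3K4me3, so none could be a host.

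For genes of other tissues and of fragile sites, the interval of each host share included that of lacking genes in the class of the median length. Of 45 neuronal adhesion and synapse genes that lacked H3K4me3, 14 were hosts (31.1%, 18.2 to 46.6) with 101 peaks, of which SYT1 held 32, NEGR1 22, LRP1B 18 and SYN3 11. These genes had a median length of 959 kb, and 46.5% of all lacking genes of 500 kb or more were hosts. Of 16 fragile-site genes, 7 were hosts (43.8%, 19.8 to 70.1), led by FHIT, LRP1B, MACROD2 with 10 and CNTNAP2 with 5, and their median length of 1370 kb puts them beside the same 46.5%. Muscle genes gave 5 hosts of 21 (23.8%, 8.22 to 47.2), with 7 peaks in RYR2 and 6 in SGCD, beside 28.8% in the class of their median length. Liver genes gave 3 of 17 (17.6%, 3.8 to 43.4), with 1 peak each in AHSG, CYP2E1 and CYP3A4, beside 17.5%.

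Host shares of gene families are set beside the 20.4% of all lacking genes and the share of lacking genes in the class of the family's median length. Of 43 collagen genes that lacked H3K4me3, 19 were hosts (44.2%, 29.1 to 60.1) with 80 peaks, led by COL23A1 with 25, COL15A1 with 8, COL13A1 with 7 and COL18A1 with 5, beside 40.2% for their median length of 139 kb. Of 17 integrin genes 9 were hosts (52.9%, 27.8 to 77, beside 33.9%), with 7 peaks each in ITGA11 and ITGB6. The 7 peaks of ITGA11 had folds between 6.33 and 7.93, all far above the median of 2.40. Of 211 solute carrier genes 54 were hosts (25.6%, 19.8 to 32, beside 28.8%), led by SLC9A9, SLC2A9, SLC24A2 with 13 and SLC24A4 with 12. Potassium channel genes gave 24 hosts of 80 (30%, beside 28.8%), with 20 peaks in KCNN3 and 9 in KCNQ1, and calcium channel genes 8 of 22 (36.4%, beside 40.2%), with 10 in CACNA1D. The intervals of collagens, integrins and solute carriers all include the share for their length.

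ARHGAP and ARHGEF genes, which regulate small GTPases, and receptor phosphatases were also among the hosts. Of 14 ARHGAP genes 7 were hosts (50%, 23 to 77) with 47 peaks, led by ARHGAP24 with 15, ARHGAP22 with 12 and ARHGAP25 with 10. Their median length was 194 kb, in the class with 40.2%. Of 14 ARHGEF genes 8 were hosts (57.1%, 28.9 to 82.3) with 12 peaks, none of them with more than 2, and their class also had 40.2%, a share inside both intervals. Receptor tyrosine phosphatases gave 6 hosts of 13 (46.2%, beside 45.3%), with 16 peaks in PTPRK and 7 in PTPRF, and ADAM and ADAMTS proteases 10 of 31 (32.3%, beside 33.9%), with 12 in ADAMTS17. Cadherins and protocadherins gave 12 of 67 (17.9%, 9.61 to 29.2), led by CDH4 with 8 and CDH13 with 6. This was below the 40.2% for their median length of 103 kb, and below the 33.9% of lacking genes of 50 to 100 kb. Glutamate receptor genes gave 6 of 26 (23.1%, 8.97 to 43.6), led by GRM4 with 5. This was also below the share for their median length of 315 kb, 45.3%. Zinc finger genes gave 18 of 103 (17.5%, 10.7 to 26.2), led by ZNF280D with 13, beside 28.8% for their median of 24 kb. At the low end, 6 of 391 olfactory receptor genes (1.53%, 0.565 to 3.31) and 2 of 150 keratin and keratin-associated genes (1.33%) were hosts, with 1 peak each. These short genes had median lengths of 2.9 kb for olfactory receptors and 1.15 kb for keratins, in the class with 3.4%, and a gene of 2 kb or less cannot hold a peak more than 1 kb from both of its ends. Of 47 genes named by a CD number 12 were hosts (25.5%, beside 17.5% for their median length), led by CD8B2 with 5 peaks, and CD226 and CD9 with 4 each. CD8B2 is a near-identical copy of CD8B, so its reads cannot be placed with certainty.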

How the data were processed

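Chromatin from formaldehyde-fixed ALL-SIL cells was sonicated and precipitated with an H3K4me1 or an H3K4me3 antibody, and input DNA was sequenced alongside. The authors called broad peaks with MACS2 2.1.0.20150731 against the input, with q limits of 0.1 for broad and 0.05 for strong regions, per the file headers. Coordinates are GRCh38, per the submitters' processing notes. Input paths in the file headers name STAR, and how it treated repeated sequence is not given in the sources used here. Deposited tables list a coverage signal (pileup), a ratio over the local background (fold enrichment) and −log10 p and q values per peak. These scores are the authors' own means over each region and were used only within the list they came from.

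Members were selected against RefSeq GRCh38.p14 gene spans (20037 protein-coding and 18303 lncRNA genes on the main chromosomes), and the selection was tested on simulated data. Strand came from the RefSeq promoter table, which matched 15842 protein-coding genes. Gaps were measured between gene spans. Intervals are exact (Clopper-Pearson) for shares and order-statistic intervals for medians, at 95%. Python 3.11.15, pandas 2.3.3, numpy 2.4.6, scipy 1.17.1 and matplotlib 3.10.9 were used. Members and gene lists were chosen with earlier results of these data known. Named are the 12 hosts with most peaks, the 8 densest with at least 5, the 8 highest folds, the 3 longest peaks, the 5 shortest and 5 longest gaps among hosts with at least 5 (ties by number of peaks), up to 6 hosts of each lymphoid, receptor, oncogene and signalling list, up to 4 of other lists, and those at each threshold.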

Additional observations from a re-analysis of the deposited data

How the results depend on the processing

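The 7 summary results were recomputed with other limits. With only H3K4me1 peaks of −log10 q of at least 3, there were 1893 peaks in 949 hosts, 10.2% of lacking genes were hosts, the median fold was 3.56, the median gap to a gene with H3K4me3 was 25.5 kb and 18.4% of hosts had H3K4me1 at an end. With only H3K4me3 peaks of −log10 q of at least 5, more genes counted as lacking the mark: there were 8875 peaks in 3093 hosts, 27.3% of lacking genes were hosts, the gap was 33.5 kb and 42.1% of hosts had H3K4me1 at an end. The median number of peaks per host was then 2, against 1 (1 to 2) with the main limits. A margin of 5 kb for H3K4me3 gave a gap of 26.5 kb, and a distance of 2.5 kb to gene ends gave a host share of 18%. The other values, including those without chromosome 8 (4830 peaks in 1830 hosts, chosen after seeing the data, since the promoter table has no entry there), moved by less than 1.5 times for counts or stayed within the interval. Joining gaps of 5 and 20 kb gave 3798 and 2701 groups of peaks. No paired analysis was possible because each mark has 1 library. The number of peaks thus depends on the score limits of both lists at this depth, and H3K4me3 signal below the peak caller's limits was not analysed here.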

Other observations

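Peaks in genes lacking H3K4me3 were unevenly spread over the chromosomes. They were densest on chromosome 22, with 19.6 per Mb of lacking genes (159 peaks in 51 hosts), chromosome 17 with 16.8 and chromosome 19 with 14.9. They were sparsest among the autosomes on chromosome 8 with 5.49, and lower still on chromosome X with 4.31. Chromosome Y had the lowest value, 0.988, from only 2 peaks in 2.02 Mb. Peaks in genes with H3K4me3 varied less over these, with 56.3 per Mb on chromosome 22, 48.1 on chromosome 17, 42.4 on chromosome 19, 51.1 on chromosome 8 and 25.1 on chromosome X. On chromosome Y their density was 7.89 per Mb, from 3 peaks.

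The host genes contained 144 miRNA hairpins of the RefSeq table. Of these, 3 overlapped one of the peaks, namely MIR7114 in NSMF, MIR6815 in COL18A1 and MIR3196 in BIRC7, an inhibitor of apoptosis. Including these 3, 15 hairpins lay within 1 kb of a peak. The peaks covered 1.21% of the available sequence of all genes lacking H3K4me3. Host genes are the part of that sequence that holds all the peaks, so their own share is higher, and it was not computed. Nor was the share of sequence within 1 kb of a peak. The counts of hairpins therefore do not show whether peaks favour hairpins. The NSMF peak over MIR7114 was the peak with a fold of 8.86, the second highest of all 4998. Of other hosts, AFF3, a lymphoid member of a family of elongation factors, held 17 peaks with a median fold of 3.60, and TNFSF4, the T-cell costimulatory ligand OX40L, held 12 with a median fold of 2.72. Both were picked after their values were seen.

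The peaks were also set beside the tabulated start sites of their host genes. Peaks within 1 kb of a gene end were left out, so a gene whose only tabulated start site is its end could not contribute. How many genes have a start site inside was not counted, so the shares below do not tell whether peaks favour or avoid such sites. Among peaks whose host gene is in the promoter table, a tabulated start site of the same gene lay within 1 kb of 138 of 3876 peaks (3.56%, 3 to 4.19), against 1178 of 21428 peaks in genes with H3K4me3 (5.5%, 5.2 to 5.81).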
